A study of Mus musculus with 2 samples.

Results

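The Serpina genes of mouse liver encode secreted antiproteases and carriers of the clade A serpins. The members described here were chosen by name as rows of the count table. They were the 5 alpha-1 antitrypsin copies Serpina1a, Serpina1b, Serpina1c, Serpina1d and Serpina1e, the antichymotrypsin-related copies Serpina3k, Serpina3m and Serpina3n, the corticosteroid carrier Serpina6, and Serpina10, the protein Z-dependent inhibitor of coagulation factor X. All 10 were found among the 31053 genes of the table. Their levels were read in cells of perfused mouse liver, hepatocytes and other cells, by single-cell RNA-seq in droplets. The method counts unique molecular identifiers (UMIs) at the 3 prime end of each transcript in each cell barcode.

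The series holds 1 control library (LaptTA;WT, 2989 barcodes) and 1 tetYAP 4W library (LaptTA; tetYAP, 1524 barcodes, 4 weeks of induction). Both genotypes carried the tetracycline transactivator under the liver-restricted LAP promoter. The second also carried an inducible transgene for a constitutively active mutant YAP, which doxycycline in the food suppressed until the mice were put on a regular diet at 4 weeks of age. Each group was 1 library with no replicate, so there was no test of genotype, and all intervals given are 95% intervals that cover counting error alone.

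Serpins inhibit proteases by offering a reactive centre loop as bait. The protease cuts the loop at the P1 residue, the serpin folds the cut loop into its body, and the protease stays trapped in an inactive complex. Hepatocytes secrete most circulating alpha-1 antitrypsin, which guards tissue against neutrophil elastase. The mouse carries several copies of this gene, and the residue at the P1 position largely decides which protease a copy can trap. Other clade A members have lost inhibition and bind hormones, as Serpina6 does with corticosteroids.

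The 10 genes lie in 1 cluster on chromosome 12 (GRCm38.p6, RefSeq, chr12:103616675-104414334). Serpina10 (start 103616675) and Serpina6 (start 103646630) come first, followed by Serpina1b, Serpina1d, Serpina1a, Serpina1c and Serpina1e, whose gene spans chr12:103946931-103956897. Serpina3k (chr12:104338486-104345739), Serpina3m and Serpina3n follow. In the GENCODE vM1 transcripts each of the 5 Serpina1 copies had a coding length of 1242 bases, and the 10 pairs of copies were 96.3% to 98.5% identical over the coding sequence.

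The stretch of coding sequence for the reactive centre loop is shown because it is where the products of these otherwise near-identical genes differ in function. The 5 lines below are the GENCODE vM1 coding sense strand, coding bases 1105 to 1158, within the last exon of each transcript. The capitals mark the codon of the P1 residue.

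Serpina1a: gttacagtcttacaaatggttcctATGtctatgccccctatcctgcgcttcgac

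Serpina1b: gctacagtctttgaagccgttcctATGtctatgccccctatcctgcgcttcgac

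Serpina1c: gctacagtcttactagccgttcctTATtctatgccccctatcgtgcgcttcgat

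Serpina1d: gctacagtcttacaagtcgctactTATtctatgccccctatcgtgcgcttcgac

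Serpina1e: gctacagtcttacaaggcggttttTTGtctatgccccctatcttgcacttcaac

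Serpina1a and Serpina1b share the P1 codon, Serpina1c and Serpina1d share another, and Serpina1e has one of its own. Serpina1e and Serpina1a differed at 11 of the 54 loop bases and at 43 of the 1242 coding bases. For the Serpina3 copies the loop is shown for the same reason, with the part that lies between the hinge and the conserved end in capitals (coding bases 1123 to 1179 of Serpina3k and 1117 to 1179 of Serpina3m, both in the last exon).

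Serpina3k: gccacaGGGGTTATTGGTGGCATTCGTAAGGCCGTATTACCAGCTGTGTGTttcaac

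Serpina3m: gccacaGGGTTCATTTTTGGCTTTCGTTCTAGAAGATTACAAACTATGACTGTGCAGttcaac

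Serpina3k and Serpina3m were 91.0% identical over the coding sequence and 82.0% over the last 400 transcript bases, while Serpina3k and Serpina3n were 82.6% and 49.0% identical. Because reads came from transcript ends, the last 400 bases of each transcript were cut into 311 windows of 90 bases, and each window was looked up in all protein-coding transcripts. In Serpina1e, Serpina3k, Serpina3m, Serpina3n, Serpina6 and Serpina10 all 311 windows (100%) occurred in no other gene. The share was 97.4% in Serpina1a, 95.2% in Serpina1b and 92.3% in Serpina1c, and Serpina1d had 280 such windows. Single-copy counts were therefore used, and since the copies of a family still share stretches in which a read cannot be placed, each family was also summed.

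The control library held 9509885 UMIs (median 3117 per barcode) and the tetYAP 4W library 6777210 (median 4150). Barcodes above 7500 UMIs had been excluded by the authors, so all shares and levels hold for the barcodes kept. Yap1, the mouse gene for YAP, stood at 155 UMIs in the control and 128 in tetYAP 4W, a log2 ratio of 0.21 (-0.14 to 0.56). Whether transcripts of the transgene could be counted as Yap1 is not given in the sources used here, so Yap1 did not check the labels. Xist, the X-inactivation RNA of females, had 3 UMIs in the control and 4859 in tetYAP 4W, and the Y-linked Ddx3y, Eif2s3y, Kdm5d and Uty summed to 716 and 0. The libraries thus differed in the sex markers as well as in genotype, and the part of each in any ratio below cannot be told apart.

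Over all barcodes, the alpha-1 antitrypsin copies and Serpina3k were lower in tetYAP 4W than in control, Serpina3m and Serpina6 were higher, and Serpina3n and Serpina10 lay within 2-fold. Of the 10 members, 6 were more than 2-fold lower, against 7.89% of the 12621 genes with at least 10 UMIs, and 2 were more than 2-fold higher, against 38.3% of those genes. The median log2 ratio was -1.23 over the members and 0.60 over all genes tested. Serpina1e carried the lowest ratio of the members.

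The 5 Serpina1 copies summed gave 238691 UMIs in the control and 40107 in tetYAP 4W. Scaled to a library total of 1000000 UMIs (CPM), that was 25099 in the control (24999 to 25200) and 5918 in tetYAP 4W (5860 to 5976). The summed level was 4.24-fold lower in tetYAP 4W (4.20 to 4.29), a log2 ratio of -2.08 (-2.10 to -2.07). In the control the 5 copies made up 2.51% of all UMIs of the library, and in tetYAP 4W 0.592%.

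Serpina1e, the copy with its own P1 codon, had 91284 UMIs in the control and 1990 in tetYAP 4W. Its level was 9599 CPM against 294 CPM, 32.7-fold lower (31.3 to 34.2). Among all genes it ranked 17 by UMIs in the control and 284 in tetYAP 4W. Serpina1a stood at 3630 CPM in the control against 1166 CPM, a log2 ratio of -1.64 (-1.67 to -1.60). Serpina1c, the most abundant copy after Serpina1e in the control, stood at 6418 CPM against 2108 CPM, a log2 ratio of -1.61 (-1.63 to -1.58). Serpina1b stood at 3602 CPM against 1593 CPM, a log2 ratio of -1.18 (-1.21 to -1.15). Serpina1d, the least abundant copy of the control, stood at 1850 CPM against 758 CPM, a log2 ratio of -1.29 (-1.33 to -1.24). All 5 copies were thus lower in tetYAP 4W, and with Serpina1e left out of the sum the other 4 together stood at 15500 CPM against 5624 CPM, 2.76-fold lower (2.73 to 2.79).

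**Figure D1:**
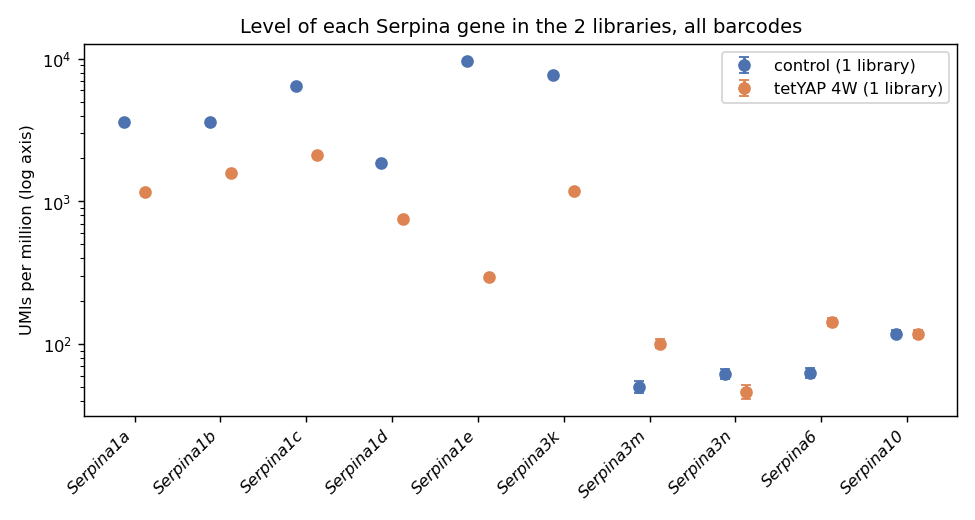
Level of each Serpina gene over all barcodes, in CPM on a log axis, for the control library (blue) and the tetYAP 4W library (orange), with bars for the 95% Poisson interval (often smaller than the point). Serpina1e was the highest of the 10 genes in the control at 9599 and stood at 294 in tetYAP 4W, below the 4 other Serpina1 copies.

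Among the Serpina3 copies, Serpina3k had 73084 UMIs in the control and 8046 in tetYAP 4W. Its level was 7685 CPM against 1187 CPM, 6.47-fold lower (6.33 to 6.63) and a log2 ratio of -2.69 (-2.73 to -2.66). Its close copy Serpina3m was higher in tetYAP 4W, with 477 UMIs in the control and 684 in tetYAP 4W, which is 50.2 CPM against 101 CPM and a log2 ratio of 1.01 (0.84 to 1.18). Serpina3n, a gene known for its part in the acute-phase response, had 592 and 315 UMIs, which is 62.3 CPM against 46.5 CPM and a log2 ratio of -0.42 (-0.62 to -0.22). Serpina3k and Serpina3m summed gave a log2 ratio of -2.59 (-2.62 to -2.55), and the 3 copies summed gave -2.55 (-2.58 to -2.52), at 7797 CPM against 1335 CPM. The sums followed Serpina3k, since it held 98.6% of the UMIs of the 3 copies in the control.

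The carrier Serpina6, which binds cortisol and corticosterone in plasma, had 601 UMIs in the control and 966 in tetYAP 4W. That was 63.2 CPM (58.2 to 68.5) against 143 CPM (134 to 152), a log2 ratio of 1.17 (1.03 to 1.32). Serpina10, which inhibits activated factor X with protein Z as cofactor, had 1124 and 801 UMIs, which is 118 CPM in both libraries and a log2 ratio of -0.00 (-0.13 to 0.13). Against the median of all genes, which stood at 0.60, the log2 ratio of Serpina6 was 0.58, that of Serpina3m 0.41, that of Serpina10 -0.60 and that of Serpina3n -1.02. The direction of Serpina10 thus depended on the scaling, and neither Serpina6 nor Serpina3m was past 2-fold on that scale. With edgeR TMM factors, and in barcodes with at most 30% mitochondrial UMIs, 0 members were more than 2-fold higher over all barcodes, while the same 6 were more than 2-fold lower in each of these settings.

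The order of the genes by level was not the same in both libraries. A UMI at the transcript end does not grow in number with transcript length, so these levels are set side by side per transcript. In the control the order from the highest level was Serpina1e, Serpina3k, Serpina1c, Serpina1a, Serpina1b, Serpina1d, Serpina10, Serpina6, Serpina3n and Serpina3m. Serpina1a and Serpina1b, and likewise Serpina6 and Serpina3n, had overlapping intervals. In tetYAP 4W the order was Serpina1c, Serpina1b, Serpina3k, Serpina1a, Serpina1d, Serpina1e, Serpina6, Serpina10, Serpina3m and Serpina3n, where Serpina3k (1161 to 1213 CPM) and Serpina1a (1140 to 1192 CPM) overlapped.

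The makeup of the alpha-1 antitrypsin UMIs does not depend on how the libraries are scaled. Serpina1e gave 38.2% of the UMIs of the 5 copies in the control (38.0 to 38.4) and 4.96% in tetYAP 4W (4.75 to 5.18). Serpina1b took 14.4% in the control and 26.9% in tetYAP 4W, and Serpina1c 25.6% and 35.6%. Serpina1a took 14.5% and 19.7%, and Serpina1d 7.37% and 12.8%. Serpina1b and Serpina1a, at about the same level in the control, stood apart in tetYAP 4W. In the Serpina3 family, Serpina3k gave 98.6% of the UMIs in the control and 89.0% in tetYAP 4W, Serpina3m 0.643% and 7.56%, and Serpina3n 0.798% and 3.48%.

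To ask whether these differences also stood among hepatocytes, barcodes were clustered without any Serpina gene and clusters were named from fixed markers. A cluster without 3 markers of another class was called hepatocyte-like where it held hepatocyte markers (such as Alb, Apoa1 and Ttr), and 2723 control barcodes (91.1%) and 823 tetYAP 4W barcodes (54.0%) fell there. All 12 hepatocyte markers reached 10 UMIs in this set in both libraries, but they did so in the other barcodes pooled too. Taken singly, the B cell and erythroid clusters had 11 such markers and the stellate cluster 10. No hepatocyte-like cluster held cells of both libraries. Clusters 0, 1, 2 and 4 were all control, and clusters 12, 14 and 15 all tetYAP 4W. By fold of summed UMIs the leading genes of cluster 12 were those of platelets (Ppbp, Gp9, Pf4), with Ppbp in 0.752% of its barcodes, and those of cluster 15 were of the exocrine pancreas (Sycn, Pnlip, Prss2), with Sycn in 1.04% of its barcodes. Among genes seen in at least 10% of barcodes, the leading genes were Sult2a6 and Gstm3 in cluster 12 and Cdh1 and Col18a1 in cluster 15. In cluster 15 these were followed by Fgfbp1, Spon2 and Nectin1 and then by mitochondrial genes. The name of every hepatocyte-like cluster, control ones included, rests on the lack of other markers together with counted hepatocyte markers. Of the 12 hepatocyte markers, 4, 10, 9 and 3 were above the rest of the library in control clusters 0, 1, 2 and 4. In tetYAP 4W clusters 12, 14 and 15 these were 12, 9 and 6. The first leading gene by fold was also rare in control clusters 0, 1 and 2 (1.22% of barcodes in cluster 0). In clusters 4 and 14 it was seen in 23.2% and 33.3%. Values without cluster 12 and without cluster 15 are given.

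In hepatocyte-like barcodes the summed markers of macrophages stood at 0.0716 UMIs per barcode in the control and 3.26 in tetYAP 4W, and those of endothelial cells at 0.226 and 2.25. Those of T or NK cells stood at 0.00220 and 0.0352. In tetYAP 4W all 10 macrophage and all 10 endothelial markers reached 10 UMIs in this set, and of the T or NK cell markers Cd3g and Trac were at 0. The median mitochondrial share was 28.2% in control and 55.5% in tetYAP 4W barcodes. The part of these differences in the ratios was not tested beyond the values given here.

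Within this set the Serpina1 copies summed stood at 25665 CPM against 6818 CPM, a log2 ratio of -1.91 (-1.93 to -1.89). Serpina1e was at 9803 CPM against 347 CPM, a log2 ratio of -4.82 (-4.90 to -4.74), and Serpina3k at 7817 CPM against 1363 CPM, a log2 ratio of -2.52 (-2.56 to -2.48). The other Serpina1 copies had log2 ratios of -1.47 for Serpina1a, -1.03 for Serpina1b, -1.43 for Serpina1c and -1.08 for Serpina1d. Serpina6 was at 1.46 (1.29 to 1.63), Serpina3m at 1.16 (0.96 to 1.36), Serpina10 at 0.20 (0.04 to 0.36) and Serpina3n at -0.32 (-0.58 to -0.07). Again 6 members were more than 2-fold lower, against 13.9% of the 10999 genes tested here, and 2 were more than 2-fold higher, against 19.8%. The median log2 ratio of the members was -1.05 and that of all genes -0.08.

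Over the 17 alternatives run on hepatocyte-like barcodes, Serpina1e and Serpina3k stayed more than 2-fold lower, from -4.31 to -5.00 for Serpina1e and from -2.01 to -3.01 for Serpina3k. The other copies did not all stay past 2-fold. In barcodes with at most 30% mitochondrial UMIs (1683 control and 111 tetYAP 4W barcodes), Serpina1b was at -0.43, Serpina1d at -0.67, Serpina1a at -0.94 and Serpina1c at -1.004, and 3 members were more than 2-fold lower. Without cluster 15, whose median mitochondrial share was 61.0%, Serpina1b was at -0.75 and Serpina1d at -0.87, Serpina3n turned to 0.05, and 4 members were more than 2-fold lower. On the total without mitochondrial UMIs and the 50 most abundant genes, Serpina1e and Serpina3k were the 2 members more than 2-fold lower. Without cluster 12 the 6 members stayed past 2-fold.

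**Figure D2:**
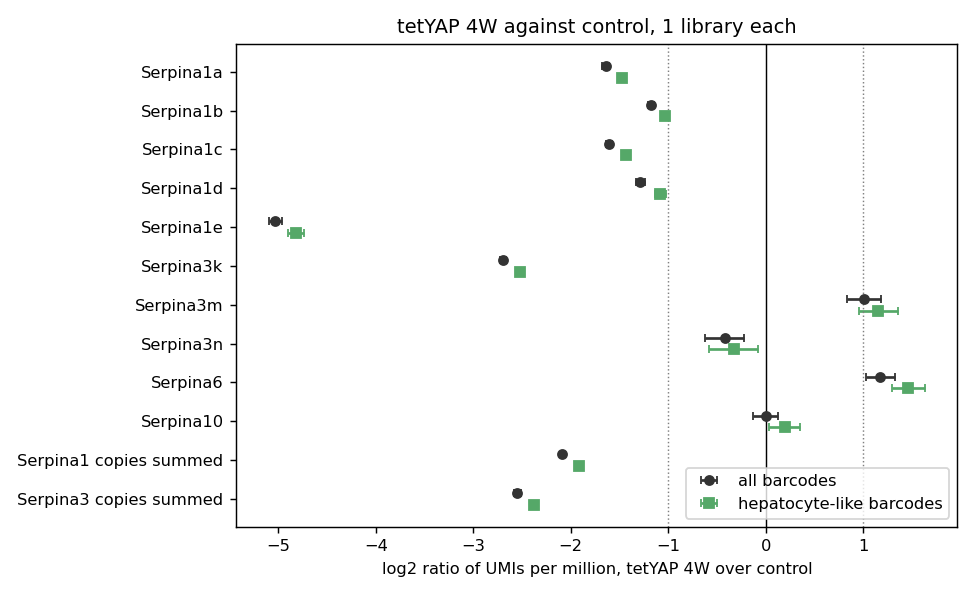
Log2 ratio of CPM, tetYAP 4W over control, for each gene and for the summed families, over all barcodes (black circles) and over hepatocyte-like barcodes (green squares), with 95% counting intervals and dotted lines at 2-fold. Serpina1e lies at -5.03 and -4.82, Serpina3k at -2.69 and -2.52, and Serpina3m and Serpina6 lie to the right of 0.

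Per barcode, hepatocyte-like control cells held a median of 80 Serpina1 UMIs (lowest 3, highest 244) and tetYAP 4W cells a median of 27 (lowest 1, highest 210). In tetYAP 4W 99.6% of these barcodes lay below the control median, and 97.9% of control barcodes lay above the tetYAP 4W median. Serpina1e had a control median of 30 UMIs (0 to 151) and a tetYAP 4W median of 1 (0 to 34). It had no UMI in 219 of 823 tetYAP 4W barcodes and in 1 of 2723 control barcodes. Serpina3k had a control median of 24 UMIs (2 to 106) and a tetYAP 4W median of 5 (0 to 20), and 1905 control barcodes were above the highest tetYAP 4W barcode. Serpina1a, Serpina1b, Serpina1c and Serpina1d had barcodes at 0 in both libraries, with medians of 12, 11, 20 and 6 in the control and 5, 7, 10 and 3 in tetYAP 4W.

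**Figure D3:**
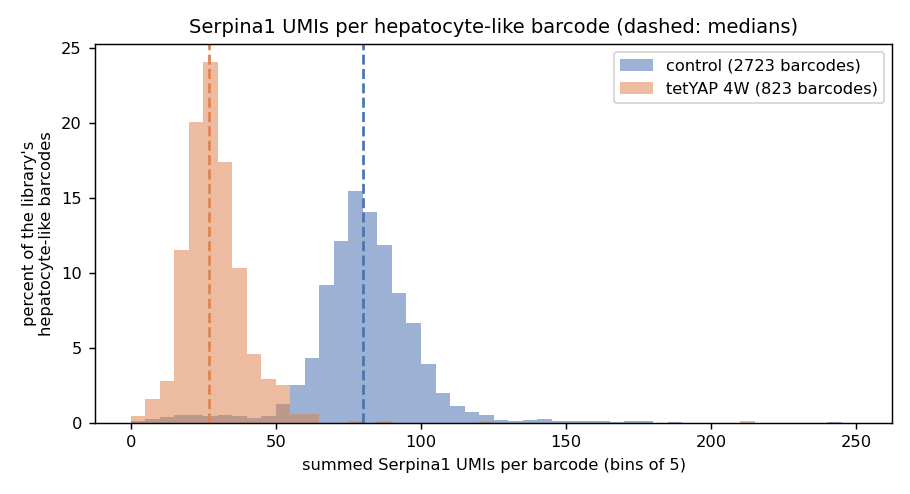
Summed Serpina1 UMIs per hepatocyte-like barcode (bins of 5) as a percent of the library's hepatocyte-like barcodes, control in blue and tetYAP 4W in orange, with medians dashed. The medians are 80 and 27, and a single tetYAP 4W barcode stands at 210.

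Only 3 of the 823 tetYAP 4W hepatocyte-like barcodes lay above the control median, all in cluster 12. The highest held 210 Serpina1 UMIs, of which 34 were Serpina1e, in a barcode of 7016 UMIs with 15.1% mitochondrial. The other two held 122 and 89 Serpina1 UMIs with 1 and 2 of Serpina1e. These 3 barcodes were picked after their values were seen.

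Transcripts of hepatocytes were counted in the barcodes of every class, immune cells included, so the levels in classes that do not make these proteins serve as a background. In tetYAP 4W, T or NK cell-like barcodes held 27.3 Serpina1 UMIs per barcode (95.3% of the 28.7 in hepatocyte-like barcodes) at a median depth of 4774 UMIs against 3977. Macrophage-like barcodes held 20.3 and B cell-like barcodes 24.9. In the control, macrophage-like barcodes held 52.1 and endothelial cell-like barcodes 83.2, against 80.2 in hepatocyte-like ones. The median depths of these control classes were 3626, 4651 and 3095 UMIs. Scaled to depth, they stood at 14121, 17665 and 25665 CPM, so both other classes were below the hepatocyte-like one. In tetYAP 4W, T or NK cell-like barcodes stood at 5686 CPM and hepatocyte-like barcodes at 6818 CPM. Endothelial cell-like barcodes stood at 4198 CPM, macrophage-like at 4680 CPM and neutrophil or monocyte-like at 4766 CPM. Nearer to the hepatocyte-like level were B cell-like (6123 CPM), stellate or mesenchymal cell-like (6523 CPM) and erythroid cell-like barcodes (6748 CPM). Serpina3k in tetYAP 4W stood at 5.42 UMIs per T or NK cell-like barcode and 5.73 per hepatocyte-like barcode. RNA made in a hepatocyte-like barcode and free RNA of the suspension therefore cannot be told apart for these genes. Over all barcodes, the parts of fewer hepatocytes and of less RNA per hepatocyte in these levels were not tested. The share of Serpina1e in its family, which does not depend on the scaling, was 38.2% in the control and 4.96% in tetYAP 4W.

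**Figure D4:**
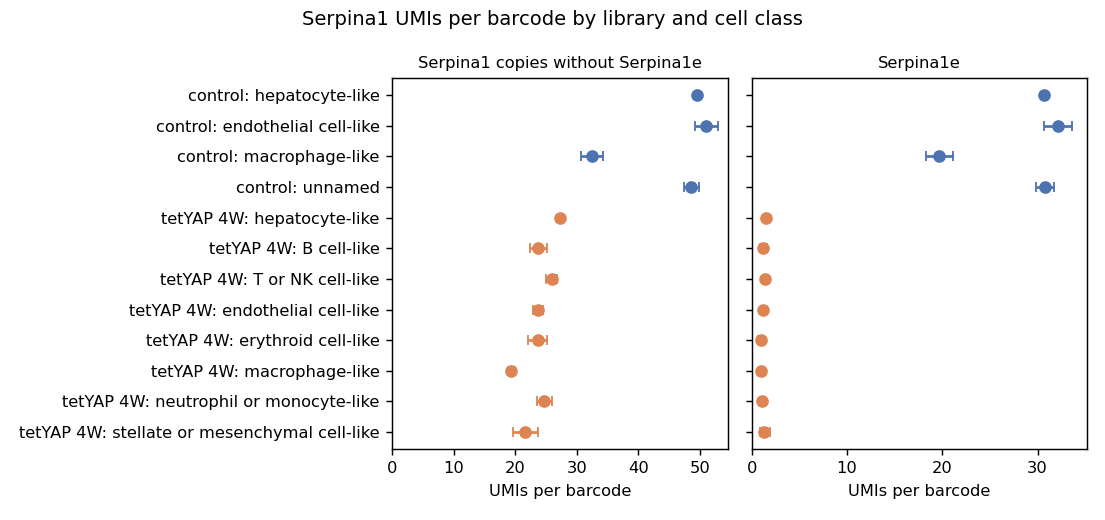
UMIs per barcode of the Serpina1 copies without Serpina1e (left) and of Serpina1e (right), by library and cell class, with 95% Poisson intervals. Control macrophage-like barcodes lie below the other control classes, and every tetYAP 4W class lies below every control class in both panels.

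The makeup of the family was alike in all classes of a library. Serpina1e gave between 37.8% and 38.6% of the Serpina1 UMIs in the 3 named control classes and between 3.86% and 5.69% in the 8 named tetYAP 4W classes. Serpina1b gave 13.8% to 14.9% in the control classes and 25.8% to 28.1% in those of tetYAP 4W. Serpina3k gave 98.3% to 98.6% and 86.9% to 89.7% of the Serpina3 UMIs. No class of one library had a makeup within the range of the other for these 3 genes.

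**Figure D5:**
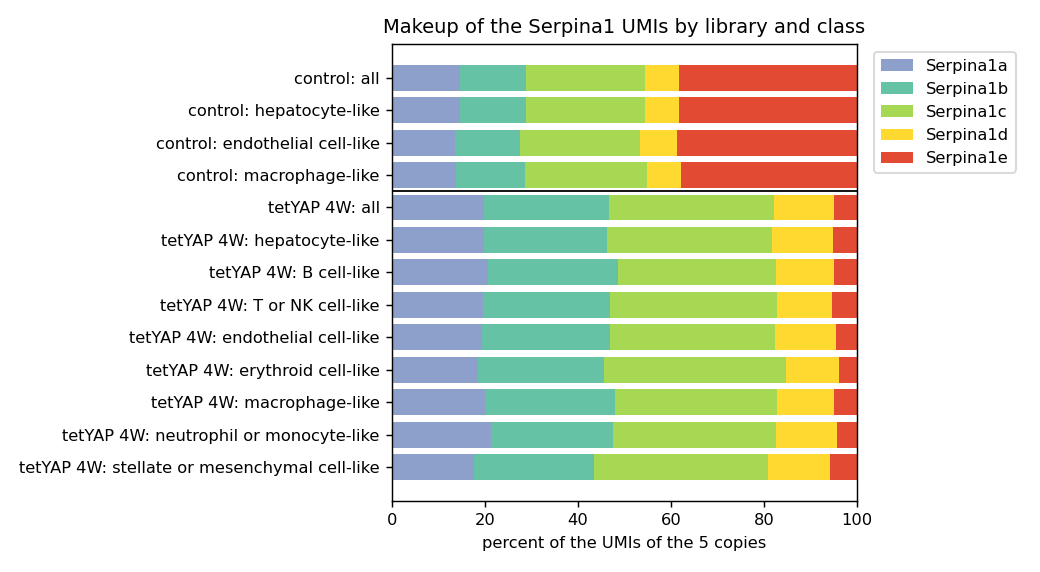
Percent of the summed UMIs of the 5 Serpina1 copies held by each copy, for all barcodes and each named class of the control (above the line) and of tetYAP 4W (below it). Serpina1e holds 38.2% of the bar over all control barcodes and 4.96% over all tetYAP 4W barcodes, and the bars of a library look alike.

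The less abundant genes were seen in few barcodes. Among hepatocyte-like barcodes, Serpina6 had a UMI in 17.7% of those from the control (16.3 to 19.2) and 49.7% of those from tetYAP 4W (46.2 to 53.2). Among tetYAP 4W barcodes of T or NK cell-like class the share was 45.5%. Thinned to 1000 UMIs per barcode, which left out 23 control barcodes, these shares were 5.44%, 16.6% (14.2 to 19.4) and 12.9% (7.68 to 19.8). In macrophage-like tetYAP 4W barcodes Serpina6 had a UMI in 31.0%, and thinned in 8.39% (5.40 to 12.3), so the hepatocyte-like share lay above this class and overlapped with that of the T or NK cell-like barcodes. Serpina3m had a UMI in 14.2%, 36.6% and 38.6% of the same 3 sets, and Serpina3n in 17.6%, 19.4% and 17.4%. In macrophage-like tetYAP 4W barcodes these shares were 32.8% for Serpina3m and 11.7% for Serpina3n, and thinned the intervals of Serpina3m and of Serpina3n in hepatocyte-like barcodes overlapped with those of both other classes. Serpina10 had a UMI in 31.0%, 44.1% and 28.0% of them, and thinned the tetYAP 4W shares were 12.8% (10.6 to 15.2) in hepatocyte-like and 3.03% (0.83 to 7.58) in T or NK cell-like barcodes, with 10.9% in macrophage-like ones.

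The promoters of the Serpina1 copies were compared over a stretch of 106 bases and were near-identical there. The stretches of Serpina1a and Serpina1e are shown because all 5 copies were lower, to different degrees. RefSeq promoter windows, from 250 bases before to 50 after the annotated start (GRCm38.p6), were at hand for 6 of the 10 members, the 5 Serpina1 copies and Serpina3n. The stretches below, on the minus strand, lie upstream of the start at chr12:103863625-103863730 for Serpina1a and chr12:103956960-103957065 for Serpina1e. The capitals mark the letters GTTAAT, a half-site of the hepatocyte factor HNF1.

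Serpina1a: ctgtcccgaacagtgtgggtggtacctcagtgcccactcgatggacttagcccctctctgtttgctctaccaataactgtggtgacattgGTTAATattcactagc

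Serpina1e: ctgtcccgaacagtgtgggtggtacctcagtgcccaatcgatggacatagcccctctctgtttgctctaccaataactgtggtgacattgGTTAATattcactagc

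These stretches differed at 2 of 106 bases, and over the 10 pairs of Serpina1 copies the count ran from 2 to 7. GTTAAT, read on both strands, was in the windows of all 5 Serpina1 copies and not in that of Serpina3n, and 7.10% of all 32851 windows held it. CAAAGT, an HNF4 core, was in the windows of Serpina1a, Serpina1b and Serpina1d, and 14.4% of all windows held it. TTGCNNAA, a C/EBP core with N for any base, was in those of Serpina1a, Serpina1b, Serpina1d and Serpina1e. It was in 10.8% of all windows. GGAATG, the core that TEAD proteins bind, was in none of the 6 windows, and 14.7% of all windows held it. TTCNNNGAA, a STAT core, was also in none, and 8.30% of all windows held it. A match of letters is a description and not a bound site. RefSeq places the start of Serpina1e farther from the half-site (78 bases) than those of the other 4 copies (16 to 27 bases).

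The other Serpina genes on a list of 16, of which 14 were in the table, differed in both directions. Of the 7 with at least 10 UMIs, 3 were more than 2-fold lower and 3 more than 2-fold higher over all barcodes, against 7.89% and 38.3% of all genes. Their median was -0.78, and that of all genes 0.60. Serpina12, which encodes vaspin, had 3598 UMIs in the control and 133 in tetYAP 4W, which is 378 CPM against 19.6 CPM and a log2 ratio of -4.27 (-4.53 to -4.02). Serpina3c was at -2.90 (-3.59 to -2.28) and Serpina9 at -3.54 (-5.87 to -1.91) on 49 and 3 UMIs. The thyroxine carrier Serpina7 was at 1.13 (0.67 to 1.60). Serpina3g was at 3.06 (2.45 to 3.74) and Serpina3f at 2.62 (1.88 to 3.42). Serpina3g and Serpina3f were counted mostly outside hepatocyte-like barcodes. In tetYAP 4W, Serpina3g had 0.602 UMIs per endothelial cell-like barcode and 0.033 per hepatocyte-like barcode, and Serpina3f 0.414 and 0.012, unlike the near-even spread of the Serpina1 copies.

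Among plasma and matrix serpins of other clades, Serpinc1, the antithrombin gene, was at -0.58 (1046 against 701 CPM), Serping1, the C1 inhibitor, at -0.54, and Agt, the source of angiotensin, at 0.11. The sign of Agt turned with the scaling. Serpinh1, the collagen chaperone, was at 3.61 on 18 and 157 UMIs. The protease nexin gene Serpine2 had 76 and 3 UMIs. Of 5 intracellular clade B serpins measured, 4 were more than 2-fold higher and 0 lower over all barcodes, where 38.3% of all genes were higher and 91.1% of control but 54.0% of tetYAP 4W barcodes were hepatocyte-like. They were Serpinb6a at 3.34 (12.1 against 123 CPM), Serpinb1a at 4.14, Serpinb6b at 2.98 and Serpinb8 at 2.95, while Serpinb9 was at 0.84. In hepatocyte-like barcodes Serpinb6a stood at 4.02 and Serpinb9 at -0.25, and Serpinb6b had 5 and 2 UMIs, too few to be counted there.

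Of the 10 target proteases and cofactors measured, 1 was more than 2-fold lower and 3 were higher (7.89% and 38.3% of all genes), with a median of -0.24 against 0.60 over all genes. Among them Ctsb, a lysosomal cathepsin, was at 2.01 and Ctsl at 0.83, while the contact-phase proteases F11 and Klkb1 were at -1.57 and -0.96. Elane, Prtn3 and Ctsg, the neutrophil proteases that alpha-1 antitrypsin and antichymotrypsin inhibit, were hardly counted, and Prtn3 alone of them passed 10 UMIs, with 4 and 8. Prtn3 and the mast cell chymase Cma1, with 7 and 10 UMIs, were the other 2 counted as higher, with intervals that included 0. Of the 8 hormone carriers and glucocorticoid genes (median 0.16), 2 were lower, Ttr at -1.85 and Rbp4 at -1.34, and 1 was higher, Fkbp5 at 1.51. Tsc22d3, a glucocorticoid target like Fkbp5, was at 0.98, and at 0.11 in hepatocyte-like barcodes. Alb stood at 27809 CPM against 37445 CPM, a log2 ratio of 0.43, which is below the median of all genes. In hepatocyte-like barcodes, where that median was -0.08, Alb was at 0.68.

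Of 10 genes that carry glycoproteins through the secretory pathway, 1 was more than 2-fold higher and 0 lower over all barcodes, against 38.3% and 7.89% of all genes. Their median was 0.08 where that of all genes was 0.60, and in hepatocyte-like barcodes 0.0085 against -0.08. Lman1 and Mcfd2, which form a cargo receptor for export from the endoplasmic reticulum, were at -0.46 and -0.15. Man1b1, a mannosidase of glycoprotein degradation, was at 1.63, and Pdia3, a disulfide isomerase, at 0.65. Of 13 regulators, 4 were more than 2-fold lower and 3 higher over all barcodes, against 7.89% and 38.3% of all genes, with a median of -0.40 against 0.60. In hepatocyte-like barcodes 2 were lower and 2 higher, against 13.9% and 19.8% of all genes, with a median of -0.39 against -0.08. Foxa3 was at -1.79 and Onecut1 at -1.29, both hepatocyte transcription factors, and the others lower were Foxa1 at -1.03 and Cebpa at -1.20. Il6ra, the interleukin 6 receptor, was at 1.76, its signalling partner Il6st at 1.09, and its feedback inhibitor Socs3 was at 2.89 on 22 and 116 UMIs. In hepatocyte-like barcodes Foxa3 was at -1.59, Il6ra at 0.998 and Socs3 at 2.47, and Onecut1 was at -0.76 with a sign that turned in barcodes of low mitochondrial share.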

How the data were processed

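Single-cell 3 prime RNA-seq of perfused mouse liver was available as 1 table for 1 control and 1 tetYAP 4W library. The authors deposited raw counts, whole numbers of UMIs per gene and barcode. Per the methods of the study, cellranger was run with its default settings, which count reads placed in 1 gene, on mm10. Barcodes were down-sampled to the same number per condition, and those above 7500 UMIs were excluded. The table held 2989 control and 1524 tetYAP 4W barcodes, with upper quartiles of 3375 and 5361.5 UMIs. If the steps were run in the order described, the limit removed more tetYAP 4W than control barcodes. The tetYAP 4W levels and class shares then hold for the part of that library at lower depth. The effect on the ratios was not tested. The submitters' processing notes name Cell Ranger and Seurat 3. No barcode exceeded that limit, the highest had 7493 UMIs, and the libraries shared no barcode sequence. All barcodes were used. No doublet caller was run, so doublets remain.

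The genotype label gave each library its group. UMIs were summed per library, scaled to the library total (CPM) and compared as a log2 ratio of tetYAP 4W to control. In ratios, sums below 3 were raised to 3. The 95% intervals were exact conditional binomial for ratios, exact Poisson for sums and Clopper-Pearson for shares. Molecules, not reads, were counted, and intervals cover counting error only. Barcodes were clustered with scanpy 1.11.5 without Serpina genes (2000 variable genes, 20 components, 15 neighbours, Leiden resolution 0.8). A class was named from 3 markers at 3-fold over the rest of the library. A class was used from 20 barcodes on. The ratio code was tested on simulated data.

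Named were all members and, of each list, the 2 highest and 2 lowest ratios among genes with at least 100 UMIs. Other genes given were chosen after their values were seen. The counts of 1 list, and 1 gene in it, are left out here. Members and lists were chosen with earlier results of these data known. Alternatives were other limits on barcodes, scalings (edgeR 4.0.16 TMM as a normalization only), thinning, an offset of 0.5 UMIs, other cluster settings and minimum counts. Leaving out clusters 12, 14 or 15, and clusters 4 and 14 alone, were added after seeing the data. Transcript sequences are GENCODE vM1 (NCBIM37) and positions and promoters RefSeq (GRCm38.p6), the build that mm10 names. Tools were Python 3.11.15, R 4.3.3 and matplotlib 3.10.9.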

Additional observations from a re-analysis of the deposited data

How the results depend on the processing

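No paired analysis was possible because each group was 1 library. No alternative changed the sign of the log2 ratio of either summed family. Over all barcodes, the Serpina1 and Serpina3 sums (main -2.08 and -2.55) were -2.01 and -2.48 with each barcode weighted equally, -2.64 and -3.11 with TMM factors, -2.68 and -3.14 relative to the median of all genes, -2.26 and -2.72 at no more than 30% mitochondrial UMIs, and -2.23 and -2.71 in barcodes rich in Malat1 and Neat1. The Serpina1 sum was -2.03 when thinned to 1000 UMIs. In hepatocyte-like barcodes the sums (main -1.91 and -2.38) were -1.85 and -2.33 with equal weights, -1.41 and -1.87 on the total without mitochondrial and the 50 most abundant genes, -1.83 and -2.30 relative to the median, -1.41 and -1.99 at the mitochondrial limit, -2.09 and -2.55 without cluster 12, -1.65 and -2.11 without cluster 15, and -1.62 and -2.82 in clusters 4 and 14 alone. The Serpina1 sum was -1.88 thinned, -2.01 without clusters and -1.89 without cluster 14. The share of all genes more than 2-fold higher in hepatocyte-like barcodes (19.8%) was 36.9% at a minimum of 1 UMI and 10.7% at 50 UMIs. The number of members more than 2-fold lower in hepatocyte-like barcodes (6) was 2 on that total, 3 at the mitochondrial limit, and 4 relative to the median, without cluster 15 and in clusters 4 and 14, and 5 with equal weights and in barcodes rich in Malat1 and Neat1. The number higher there (2) was 1 without clusters. Over all barcodes the number higher (2) was 0 with TMM factors, relative to the median and at the mitochondrial limit and 1 in barcodes rich in Malat1 and Neat1, and the number lower (6) was 7 relative to the median. Under the other alternatives these numbers were those of the report. The shares over all genes were recomputed only for other minimum counts. In control barcodes of other named classes, Serpina1e held 38.7% of its family and Serpina3k 98.5%.

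Signs turned for these genes. In hepatocyte-like barcodes Serpina3n turned to 0.18 on the total without mitochondrial and abundant genes and to 0.0498 without cluster 15, and Serpina10 to -0.0602 when thinned. On that total Lman1 was 0.0837, Mcfd2 0.28, Serpinc1 0.12 and Serping1 0.20. At the mitochondrial limit F11 was 0.18 (main -0.96), Mcfd2 0.68 and Onecut1 1.33 (main -0.76). In barcodes rich in Malat1 and Neat1, Mcfd2 was 0.00967 and Onecut1 0.22. Mcfd2 was 0.000558 when thinned, 0.17 without cluster 15 and 0.36 in clusters 4 and 14, where Serpinc1 was 0.12 and Serping1 0.0463. Onecut1 was 0.0943 without cluster 15 and 0.0543 without clusters. Over all barcodes Agt turned to -0.45 with TMM factors, -0.49 relative to the median, -0.33 at the mitochondrial limit and -0.19 in barcodes rich in Malat1 and Neat1. The cause was not tested. Of the members, the ratios of Serpina1e and Serpina3k stayed more than 2-fold lower under every alternative run. With 1 library per group, variation between animals was not measured, and sex and genotype cannot be told apart.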
